A study of Mus musculus with 12 samples.

Results

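The genes described here are 40 genes of the lysosome in bone marrow-derived macrophages (BMDMs) of C57BL/6 mice, of 43131 genes counted. The rule takes them by name: 9 cathepsins, 15 other hydrolases and their activators, 10 membrane and cholesterol transport proteins, the transcription factors Tfeb and Tfe3, and 4 subunits of the vacuolar proton pump (V-ATPase). BMDMs were grown from bone marrow of tlr4f/f mice, which carry loxP sites around tlr4, and of tlr4f/f-lysM-cre mice, in which Cre driven by the lysozyme M promoter removes tlr4 from myeloid cells, neutrophils as well as macrophages. All groups received 50 ng/mL of M-CSF for 7 days, and the LPS+ groups then received 1 µg/mL of lipopolysaccharide (LPS, a bacterial ligand of TLR4) for 6 h, while the LPS- groups had none. RNA was sequenced in 3 libraries per group, 12 in all. Summed over 1 transcript row per gene, the row with the highest total, libraries had between 33577087 and 56445268 counts, with a median of 45330681. All 40 genes passed the filter on low counts in every comparison. The age of the mice that gave the bone marrow is not stated in the sources used here.

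Libraries carry the names of their count columns in what follows, and these headings are in doubt. Tlr4, the deleted gene, had 115 ± 35.3 CPM (counts scaled to a common library size with TMM factors) in the columns headed LPS- tlr4f/f, 110 ± 12.5 in LPS- tlr4f/f-lysM-cre, 27.7 ± 3.40 in LPS+ tlr4f/f and 25.6 ± 1.64 in LPS+ tlr4f/f-lysM-cre (SD, n = 3), so it followed the LPS heading and not the genotype heading. Il1b, a cytokine gene that LPS is known to induce, had at most 405 counts in any library headed tlr4f/f, with or without LPS, and at least 52432 in any library headed tlr4f/f-lysM-cre. Lyz2, the gene whose promoter drives Cre, had at least 221787 counts in any library headed LPS- and at most 3272 in any headed LPS+. If the heading LPS+ tlr4f/f were exchanged with LPS- tlr4f/f-lysM-cre, Il1b would follow LPS, and Tlr4 and Lyz2 would follow genotype. Every comparison below is therefore given with the reading by its headings and the reading after such an exchange, and the values themselves are the same in both.

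Macrophage markers (8 genes) summed to between 13300 and 28844 CPM in the columns headed LPS- tlr4f/f, 17116 to 20447 in LPS- tlr4f/f-lysM-cre, 3758 to 4051 in LPS+ tlr4f/f and 7197 to 7488 in LPS+ tlr4f/f-lysM-cre, with Lyz2 among them. Fibroblast and stroma markers (6 genes, none at 0 counts) summed to 9.40 to 663, 186 to 1472, 20.4 to 25.1 and 44.9 to 56.8 CPM in the same order of headings. Their median was highest in LPS- tlr4f/f-lysM-cre, at 967 CPM, but the range there overlapped that of LPS- tlr4f/f, with a median of 61.3. Neutrophil markers (8 genes) summed to at most 186 CPM in any library, with Ly6g at 0 in all headings but LPS- tlr4f/f-lysM-cre. Osteoclast markers (7 genes) summed to 94.5 to 746 CPM in the LPS- headings, 278 to 313 in LPS+ tlr4f/f and 545 to 556 in LPS+ tlr4f/f-lysM-cre. Dendritic cell markers (6 genes) reached at most 13.2 CPM, B lymphocyte and T lymphocyte markers (4 genes each) at most 1.81 and 2.25, and mast cell and basophil markers (4 genes) at most 0.376. The part of other cells in the differences below was not tested, and in RNA from whole cultures fewer cells of a type and less RNA per cell cannot be told apart.

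Lysosomes are the acidic compartment in which macrophages break down engulfed material. Cathepsins and the other hydrolases cut proteins, sugars and lipids there, the V-ATPase pumps protons in, LAMP proteins coat the membrane, and NPC2 and NPC1 hand cholesterol out to the rest of the cell. TFEB and TFE3, of the MiT/TFE family, are transcription factors held in the cytoplasm by active mTORC1. In the nucleus they bind an E-box element with the core CACGTG, and its extended form TCACGTG, in the promoters of many lysosomal genes. Activated macrophages are known to change the activity of this pathway.

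The 7-letter form TCACGTG was looked for on both strands in RefSeq promoter windows (GRCm38.p6) of 250 bases before and 50 after the annotated start, which 34 of the 40 genes had. It was in the window of 11 of the 34 genes (32.4%) and of 4.29% of the 27025 genes with a window, and the 6-letter core CACGTG, which it contains, was in 35.3% and 8.09%. Most sites lay within 150 bases before the start. Stretches of the genes that the results below refer back to are shown, because TFEB and TFE3 are known to bind these letters. Capitals mark TCACGTG read on either strand, and 8 capitals mark TCACGTGA, which reads the same on both.
Lamp1, chr8:13159039-13159160, plus strand: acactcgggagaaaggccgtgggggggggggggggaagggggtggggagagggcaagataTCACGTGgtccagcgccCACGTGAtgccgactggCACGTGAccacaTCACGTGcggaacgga
Atp6v1a, chr16:44139324-44139451, minus strand: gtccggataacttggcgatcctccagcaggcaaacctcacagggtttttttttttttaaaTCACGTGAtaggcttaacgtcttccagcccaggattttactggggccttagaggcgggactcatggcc
Ctsd, chr7:142387908-142387937, minus strand: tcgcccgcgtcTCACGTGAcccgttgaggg
Gla, chrX:134601182-134601211, minus strand: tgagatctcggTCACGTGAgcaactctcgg
Naglu, chr11:101070009-101070037, plus strand: caaccttcaggTCACGTGgcccgaggtcg
Lgmn, chr12:102439125-102439153, minus strand: tggaatgtctgTCACGTGgtccattttat
Mcoln1, chr8:3500462-3500491, plus strand: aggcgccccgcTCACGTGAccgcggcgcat
Lamp1, whose protein coats the lysosomal membrane, held 4 sites in its window. Gla, Ctsd and Mcoln1 held 2 each, of which 1 is printed, and Atp6v1a, Lgmn and Naglu 1 each. Atp6v0d1, Cln3, Ctsa and Glb1 were the other genes with a site. By the GENCODE M21 annotation, the printed stretches of Ctsd, Gla and Mcoln1 and 26 of the bases of that of Naglu lie in an annotated exon, and those of Lamp1, Atp6v1a and Lgmn in none. A match describes these letters and is not a bound site.

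**Figure D1:**
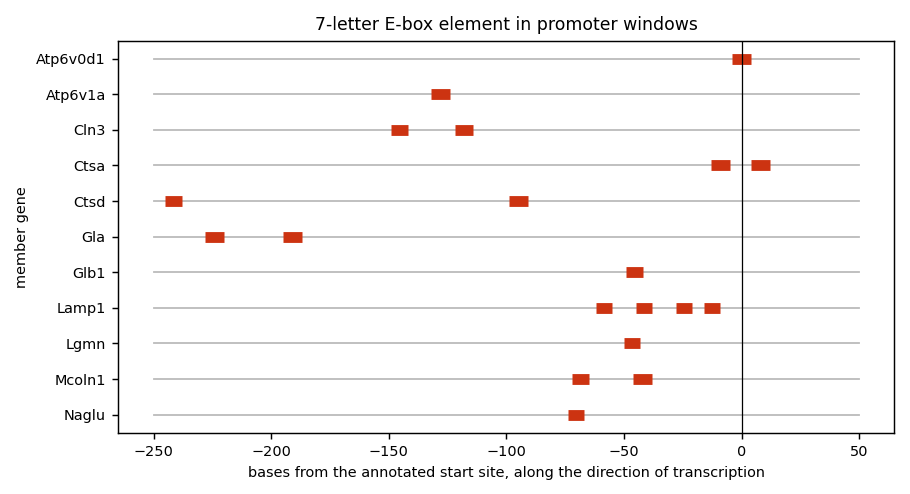
Positions of the 7-letter E-box element in the promoter windows of 11 lysosomal genes, as bases from the annotated start site. Each grey line is 1 window of 250 bases before and 50 after the start, and each red bar is 1 site. Lamp1 has 4 sites, all before the start, and the site of Atp6v0d1 spans the start.

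Lysosomal genes were among the abundant transcripts of these cells. The 40 genes together took between 2.68% and 7.45% of the counts of a library, taken over 1 transcript row per gene. Per kilobase of transcript, Ctsd, the aspartic protease cathepsin D, had the highest mean in all 4 groups, at 3714 ± 1146 CPM per kilobase in LPS- tlr4f/f, 3385 ± 984 in LPS- tlr4f/f-lysM-cre, 4006 ± 335 in LPS+ tlr4f/f and 3035 ± 151 in LPS+ tlr4f/f-lysM-cre (SD, n = 3). Ctss, Ctsb, Psap (prosaposin, the precursor of the saposin activators) and Gpnmb followed in LPS- tlr4f/f, at 2507 ± 1351, 2023 ± 826, 2018 ± 1230 and 1418 ± 929, and their ranges overlapped, so their order was not resolved there. In replicate 3 of both LPS- groups Ctss was above Ctsd. Smpd1 (acid sphingomyelinase) was among the lowest in each group, at 13.8 CPM per kilobase in LPS- tlr4f/f, and Ctsk (cathepsin K, best known from osteoclasts) was at 11.7.

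**Figure D2:**
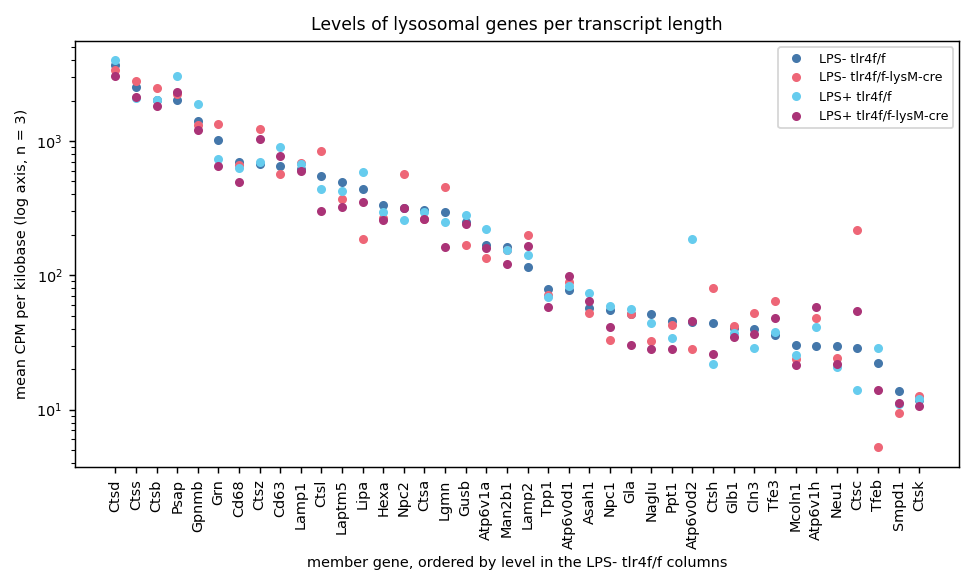
Mean level per kilobase of transcript (CPM per kilobase, log axis, n = 3) of each of the 40 genes, ordered by the columns headed LPS- tlr4f/f. The points of the 4 groups lie close together for most genes, from Ctsd at 3714 to Ctsk at 11.7 in LPS- tlr4f/f, and Ctsc, Tfeb and Atp6v0d2 are spread the widest.

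The spread between replicates differed between the headings, and this sets what each comparison could show. Over the 40 genes, the highest library of a group was a median of 1.51 times the lowest in LPS- tlr4f/f, 1.58 times in LPS- tlr4f/f-lysM-cre, 1.14 times in LPS+ tlr4f/f and 1.09 times in LPS+ tlr4f/f-lysM-cre. More than 2-fold between replicates was seen for 10, 11, 1 and 0 genes in the same order. Over the sum of the 40 genes, replicate 1 was the low library of both LPS- groups. The sums of replicates 1 to 3 were 36505, 67486 and 45544 CPM in LPS- tlr4f/f and 36744, 70902 and 59970 in LPS- tlr4f/f-lysM-cre. Replicate 1 was also the low library of both for Gpnmb, a glycoprotein of late endosomes and lysosomes. Gpnmb had 1456, 8284 and 6416 CPM in LPS- tlr4f/f and 1137, 8044 and 5757 in LPS- tlr4f/f-lysM-cre, but 6297, 7397 and 7682 in LPS+ tlr4f/f and 4031, 4772 and 5054 in LPS+ tlr4f/f-lysM-cre. Replicate 3 of LPS- tlr4f/f stood apart for Ctsl, the cysteine protease cathepsin L, with 418 CPM against 2565 and 2756 in the other replicates. Gpnmb and Ctsl were chosen for this after their values were seen.

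**Figure D3:**
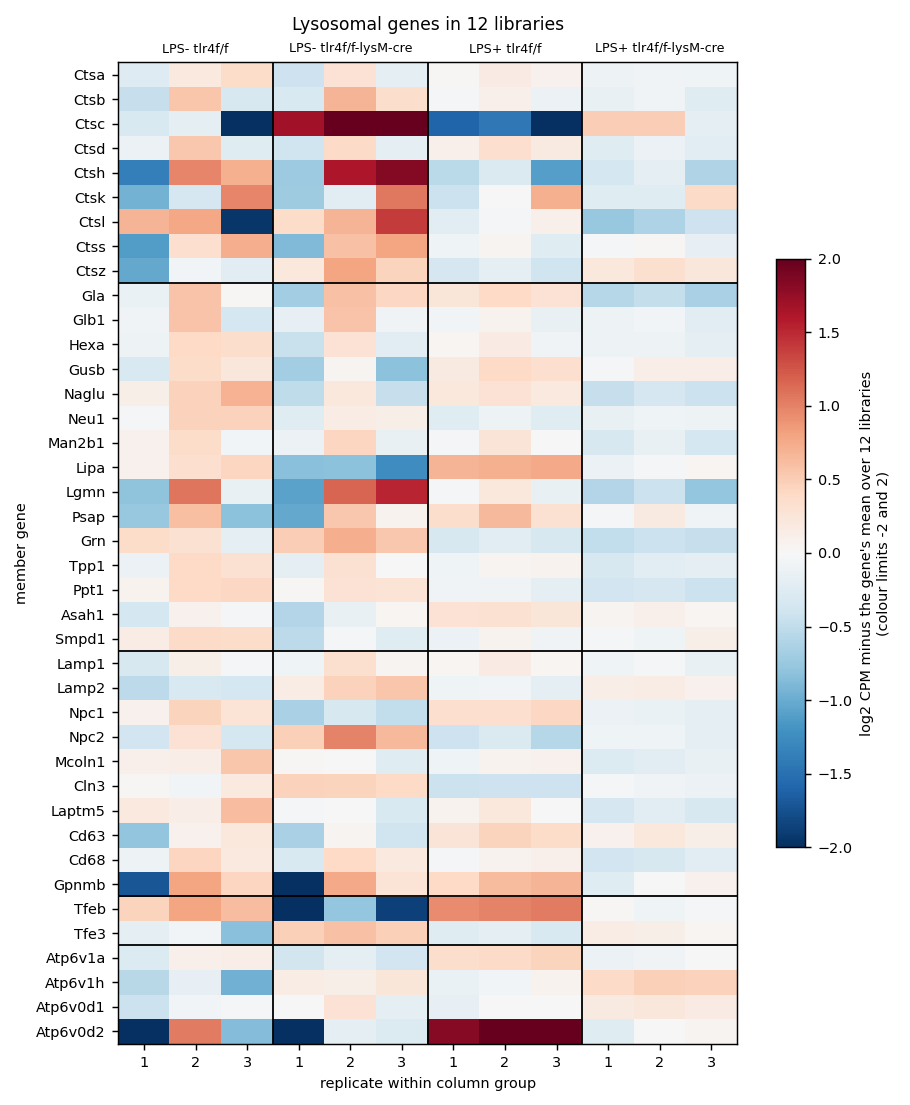
Level of each of the 40 genes in each of the 12 libraries, as log2 CPM minus the mean of that gene over all libraries (red above, blue below, colours limited at -2 and 2). Columns are replicates 1 to 3 of each heading and rows are grouped as cathepsins, other hydrolases, membrane proteins, transcription factors and V-ATPase. Colours vary within the 2 LPS- groups, as for Gpnmb, and little within the 2 LPS+ groups.

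The first comparison set the columns headed LPS+ tlr4f/f-lysM-cre against those headed LPS+ tlr4f/f. By the headings it asks what myeloid tlr4 deletion changed under LPS, and after an exchange it asks what LPS changed in tlr4f/f-lysM-cre cells. Of the 40 genes, 33 passed an adjusted p of 0.05, 8 higher and 25 lower, beside 61.4% of the 14540 genes tested (30.5% higher and 31% lower). The groups did not overlap for 33 genes either, beside 67.3% of all genes tested. The lower side held most hydrolases together with Tfeb and Npc1, and the higher side held Ctsc and Tfe3. The changes were small for most: the median log2 difference was -0.22 over the 40 genes and -0.02 over all genes, and 3 of the 40 met the study's criteria for a differentially expressed gene (DEG, adjusted p below 0.01 and more than 2-fold), beside 21.7% of all genes. Relative to library totals without TMM factors the median of all genes was -0.32. Then 3 genes were higher (Ctsc, Ctsz and Atp6v1h) and 30 lower, beside 69.8% of all genes called. A single fit over all 12 libraries gives these libraries the spread of the LPS- libraries. It called 9 of the 40 genes, beside 31.1% of all genes. Ctsc, Cln3 and Atp6v1h were higher and Gla, Naglu, Lipa, Npc1, Tfeb and Atp6v1a lower.

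Among the 9 cathepsins, 5 were called (55.6%), beside 61.4% of all genes. Ctsc and Ctsz rose, Ctsa, Ctsd and Ctsl fell, and Ctsb, Ctsh, Ctsk and Ctss did not pass the test. Ctsc encodes cathepsin C, which activates serine proteases of granules, and lies on chromosome 7 at 88278024 to 88315861. Ctsc had 109, 123 and 83.4 CPM in LPS+ tlr4f/f and 468, 468 and 289 in LPS+ tlr4f/f-lysM-cre. Every library of the latter was above every library of the former, a log2 difference of 1.95 ± 0.27 (SE, edgeR quasi-likelihood test, adjusted p = 0.0023). Ctsz, a carboxypeptidase, differed by 0.55. The falls were of 0.19 for Ctsa, 0.41 for Ctsd and 0.55 for Ctsl on the log2 scale. Ctss, the cathepsin that trims the invariant chain of MHC class II, moved least, at 0.02 ± 0.08 (adjusted p = 0.835 by the same edgeR test), with 2858 ± 293 and 2912 ± 196 CPM (SD, n = 3).

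Of the 15 other hydrolases and activators, 12 fell and 0 rose at an adjusted p of 0.05 in edgeR's test, beside 31% of all genes lower. The fold stayed under 2 for all 15. Gla, alpha-galactosidase A, whose window holds 2 elements, of which 1 is printed above, showed the largest fall. It was of 0.88 on the log2 scale, from 170 ± 10.1 to 92.6 ± 5.28 CPM (SD, n = 3). Lipa, the acid lipase that frees cholesterol and fatty acids from lipoprotein lipids, lies on chromosome 19 at 34492316 to 34527474. Lipa had 1713, 1747 and 1789 CPM in LPS+ tlr4f/f and 980, 1049 and 1090 in LPS+ tlr4f/f-lysM-cre, with no overlap and a log2 difference of -0.76 ± 0.06 (SE, adjusted p = 1.88e-07, edgeR). Naglu, which removes N-acetylglucosamine from heparan sulfate, fell by 0.64 and Lgmn, an asparaginyl endopeptidase that processes cathepsins, by 0.62. Psap fell by 0.42. Grn, progranulin, on chromosome 11 at 102430507 to 102436809, had 1659, 1803 and 1660 CPM against 1475, 1544 and 1508. Its groups did not overlap, but its fall of 0.18 was small (adjusted p = 0.012), and without replicate 1 of LPS+ tlr4f/f-lysM-cre the adjusted p was 0.0604. Neu1, Glb1 and Smpd1 did not pass the test, and Smpd1 moved least, at 0.04 ± 0.08.

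All 10 membrane and cholesterol transport genes passed the test, 3 higher and 7 lower, beside 61.4% of all genes, and none by more than 2-fold. Of these, the fit over all 12 libraries called Cln3 and Npc1 only, beside 31.1% of all genes. The cholesterol exporters moved in opposite directions: Npc1, in the membrane, fell by 0.52 and Npc2, in the lumen, rose by 0.30 on the log2 scale. Lamp2, which also serves chaperone-mediated autophagy, rose by 0.22 and Cln3 by 0.33, whereas Lamp1, with its 4 elements, moved least, at -0.18 ± 0.06 (adjusted p = 0.0157, edgeR), and was called in 10 of 14 alternatives, with an adjusted p of 0.426 in the fit over all 12 libraries and 0.0523 to 0.0677 in 3 fits without 1 library. Gpnmb fell by 0.63, Laptm5 by 0.40, Cd68 by 0.36, Mcoln1 (the calcium channel TRPML1) by 0.25 and Cd63 by 0.22. Relative to library totals Lamp2 was at -0.079, Npc2 at 0.0010 and Cln3 at 0.033, none past the test, while Npc1 was at -0.82.

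Tfeb and Tfe3, which act on the same element, moved in opposite directions. Tfeb lies on chromosome 17 at 47737037 to 47792416. It had 64.4, 66.7 and 68.8 CPM in LPS+ tlr4f/f and 34.1, 31.6 and 33.1 in LPS+ tlr4f/f-lysM-cre, a log2 difference of -1.02 ± 0.06 (SE, adjusted p = 8.41e-09, edgeR) with no overlap. Tfe3, on chromosome X at 7762530 to 7775202, had 131, 136 and 125 CPM against 171, 168 and 158. Its rise was of 0.34 ± 0.05 on the log2 scale (adjusted p = 0.000136, edgeR), and relative to library totals it was 0.038 (adjusted p = 0.533).

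Among the V-ATPase subunits, Atp6v1a and Atp6v0d2 fell and Atp6v1h and Atp6v0d1 rose, beside 61.4% of all genes called. Atp6v0d2, the d2 isoform known from macrophages and osteoclasts, lies on chromosome 4 at 19876838 to 19922566 and showed the largest difference of the 40 genes. It had 421, 488 and 499 CPM in LPS+ tlr4f/f and 100, 119 and 124 in LPS+ tlr4f/f-lysM-cre, a log2 difference of -2.04 ± 0.09 (SE, adjusted p = 3.6e-08, edgeR). Its sister isoform Atp6v0d1 rose by 0.23, moved least of the 4, and was at -0.068 relative to library totals. Atp6v1a, the catalytic subunit, fell by 0.46 and Atp6v1h, a regulatory subunit, rose by 0.47. In the fit over all 12 libraries the adjusted p of Atp6v0d2 was 0.0825, with its LPS- libraries spread from 12.1 to 245 CPM.

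The second comparison set LPS- tlr4f/f-lysM-cre against LPS- tlr4f/f, which shares no library with the first. By the headings it is the effect of genotype without LPS, and after an exchange it is the effect of LPS in tlr4f/f cells. Here 7 of the 40 genes were called, 3 higher and 4 lower, beside 37.3% of the 14635 genes tested (17.9% higher and 19.4% lower). Ctsc, Tfe3 and Lamp2 rose and Tfeb, Lipa, Npc1 and Smpd1 fell. The groups did not overlap for 14 genes, 8 higher and 6 lower, beside 54.2% of all genes tested. Ctsc, Lipa and Tfeb were DEGs, beside 17.1% of all genes, and the median log2 difference of the 40 genes was -0.08, the same as that of all genes. With RLE size factors 6 were higher and 3 lower, beside 37% of all genes called. Relative to library totals, where the median of all genes was -0.71, 1 was higher and 17 lower, beside 54.9% of all genes.

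Ctsc had 270, 293 and 83.5 CPM in LPS- tlr4f/f and 1064, 1650 and 2174 in LPS- tlr4f/f-lysM-cre. The lowest library of the latter was above the highest of the former, and the difference was 7.51-fold (log2 2.91 ± 0.55, SE, adjusted p = 0.00833, edgeR). Tfeb had 45.8, 57.9 and 51.4 CPM against 7.91, 19.6 and 9.15, with no overlap and a log2 difference of -2.10 ± 0.36 (adjusted p = 0.00573, edgeR). Lipa had 1123, 1343 and 1425 CPM against 598, 601 and 452, a fall of 1.25 ± 0.21 (adjusted p = 0.00549, edgeR). These 3 genes stayed past an adjusted p of 0.05 in each alternative run for this comparison.

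Tfe3 had 135, 149 and 86.2 CPM against 216, 231 and 215, without overlap. Its log2 difference was 0.83 ± 0.23 (adjusted p = 0.0285, edgeR), and the adjusted p lay between 0.0562 and 0.0738 without replicate 1 of LPS- tlr4f/f or without any 1 library of LPS- tlr4f/f-lysM-cre. Lamp2, chosen after its values were seen, had 382, 447 and 431 CPM against 608, 756 and 809, a difference of 0.78 ± 0.19 (adjusted p = 0.0196). Npc1, chosen in the same way, had 255, 326 and 289 CPM against 152, 191 and 170, a difference of -0.77 ± 0.16 (adjusted p = 0.0128). The groups did not overlap for either gene, and each missed an adjusted p of 0.05 without some single libraries, with at most 0.0735 for Lamp2 and 0.0627 for Npc1. Relative to library totals Tfe3 was at 0.20 (adjusted p = 0.437) and Lamp2 at 0.15 (adjusted p = 0.547), so that their calls rested on the scaling. Smpd1 had a log2 difference of -0.56 (adjusted p = 0.0412) and was called in 5 of 14 alternatives, with an adjusted p of up to 0.141. Atp6v0d2 had 26.9, 245 and 65.0 CPM against 12.1, 104 and 98.3. These overlap, and its difference of -0.66 ± 1.00 did not pass (adjusted p = 0.628).

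Set side by side, 29 of the 40 genes had the same sign in these comparisons, beside 81.5% of the 13912 genes tested in both. The 6 genes called in both, Ctsc, Lipa, Lamp2, Npc1, Tfeb and Tfe3, had the same direction in both, whereas 33.6% of all genes were called in both and 98.8% of those had the same direction in both. Of the 9 membrane genes with the same sign, 3 were positive and 6 negative, and of the 8 other hydrolases with the same sign 8 were negative. Within each reading both comparisons answer 1 kind of question, genotype by the headings and LPS after an exchange.

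**Figure D4:**
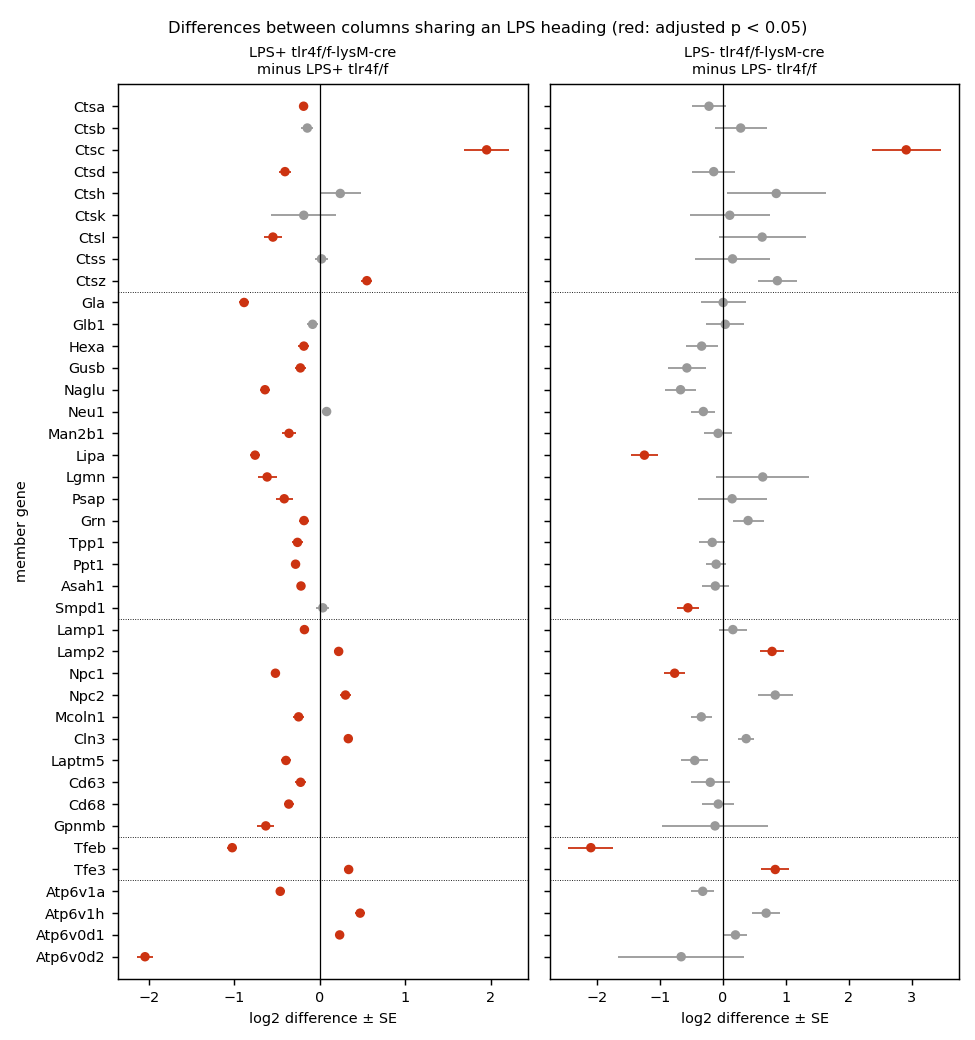
Log2 difference with its standard error (edgeR, 3 against 3 libraries) of each of the 40 genes, in the columns headed LPS+ on the left and LPS- on the right, tlr4f/f-lysM-cre minus tlr4f/f. Red marks an adjusted p below 0.05, 33 genes on the left and 7 on the right, and error bars are wider on the right. Ctsc lies to the right of 0 and Tfeb and Lipa to the left in both panels.

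The third comparison set LPS+ tlr4f/f against LPS- tlr4f/f, which by the headings is the effect of LPS in tlr4f/f cells and after an exchange the effect of genotype without LPS. None of the 40 genes was called by edgeR, beside 1.27% of the 14701 genes tested, 12 had an unadjusted p under 0.05 beside 24.7% of all genes, and DESeq2 called 8, beside 15.7% of all genes. The median log2 difference of the 40 genes was 0.00. Atp6v0d2 had the largest value, 2.09 ± 0.77 (adjusted p = 0.166), and its 421 to 499 CPM in LPS+ tlr4f/f lay above the 26.9 to 245 in LPS- tlr4f/f. Lipa, with 1713 to 1789 CPM against 1123 to 1425, and Tfeb, with 64.4 to 68.8 against 45.8 to 57.9, also did not overlap, with log2 differences of 0.46 ± 0.13 (adjusted p = 0.107) and 0.39 ± 0.10 (adjusted p = 0.0942). Without replicate 2 of LPS- tlr4f/f, 4 genes were called (6.73% of all genes), among them Atp6v0d2 and Tfeb, and without replicate 3, 5 were called (14.2% of all genes), among them Ctsc at -1.40, Ctsl at -0.76 and Grn at -0.60. The groups of 14 genes did not overlap, 8 higher and 6 lower, beside 35.5% of all genes tested.

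The fourth comparison set LPS+ tlr4f/f-lysM-cre against LPS- tlr4f/f-lysM-cre, which is the effect of LPS in tlr4f/f-lysM-cre cells by the headings and the effect of genotype under LPS after an exchange. Of the 40 genes 9 were called, 2 higher and 7 lower, beside 26.7% of the 14234 genes tested (12.5% higher and 14.2% lower). Tfeb and Lipa rose, and Ctsc, Ctsl, Grn, Npc2, Ppt1, Cln3 and Tfe3 fell. Ctsc and Grn were DEGs, beside 6.08% of all genes. Ctsc was at 289 to 468 CPM against 1064 to 2174, a log2 difference of -1.99 ± 0.32 (SE, adjusted p = 0.0073, edgeR), and Grn had 1475, 1544 and 1508 CPM against 2935, 3438 and 3030, a difference of -1.05 ± 0.12 (adjusted p = 0.00276). Neither gene's groups overlapped. The log2 differences were 0.93 ± 0.14 for Lipa (adjusted p = 0.00681), 1.45 ± 0.33 for Tfeb (adjusted p = 0.0208), -1.47 for Ctsl, -0.83 for Npc2, -0.57 for Ppt1, -0.51 for Cln3 and -0.41 for Tfe3. Without any 1 library of LPS+ tlr4f/f-lysM-cre 3 genes were called (7.02% to 7.72% of all genes) and the adjusted p of Tfeb lay between 0.0743 and 0.0798 (0.0530 without replicate 3 of LPS- tlr4f/f-lysM-cre), while without replicate 1 of LPS- tlr4f/f-lysM-cre 16 were called (27.5% of all genes). Relative to library totals, where the median of all genes was 0.37, 10 genes were higher and 4 lower, beside 39.8% of all genes called. Tfe3 (-0.059) and Cln3 (-0.16) were then not called. The groups of 16 genes did not overlap, 7 higher and 9 lower, beside 48% of all genes tested.

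Levels were also set in order over the 4 groups for Tfeb, Lipa and Ctsc, picked out after their values were seen. Tfeb ran from 12.2 ± 6.43 CPM in LPS- tlr4f/f-lysM-cre through 32.9 ± 1.27 in LPS+ tlr4f/f-lysM-cre and 51.7 ± 6.05 in LPS- tlr4f/f to 66.6 ± 2.17 in LPS+ tlr4f/f (SD, n = 3), with no overlap between neighbours. Lipa had the same order, at 550 ± 85.5, 1040 ± 55.6, 1297 ± 156 and 1750 ± 38.4, also with no overlap between neighbours. Ctsc had the reverse order, at 1629 ± 555, 408 ± 103, 215 ± 115 and 105 ± 20.03, where of the neighbouring groups only those headed tlr4f/f-lysM-cre did not overlap. The group means of Gusb, Npc1 and Atp6v1a also followed the order of Tfeb, and those of Npc2 the reverse, with some neighbours overlapping, and those of the other 33 genes followed neither. Whether the difference under one heading differed from that under the other was tested by the interaction of genotype and LPS over all 12 libraries, which has the same value in both readings. It was called for 0 of the 40 genes by edgeR, beside 6.99% of the 15775 genes tested. An unadjusted p under 0.05 was seen for 6 (23.5% of all genes). DESeq2 called 2, Grn and Lamp2, beside 14.8% of all genes. For Tfeb the interaction was 1.06 ± 0.38 (adjusted p = 0.12, edgeR) and for Ctsc -0.96 ± 0.60 (adjusted p = 0.371). Without replicate 2 of LPS- tlr4f/f-lysM-cre 2 genes were called (7.17% of all genes), among them Tfeb at 1.57 (adjusted p = 0.00169, edgeR). Without replicate 1 Gla and Lamp2 were called (7.65% of all genes).

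**Figure D5:**
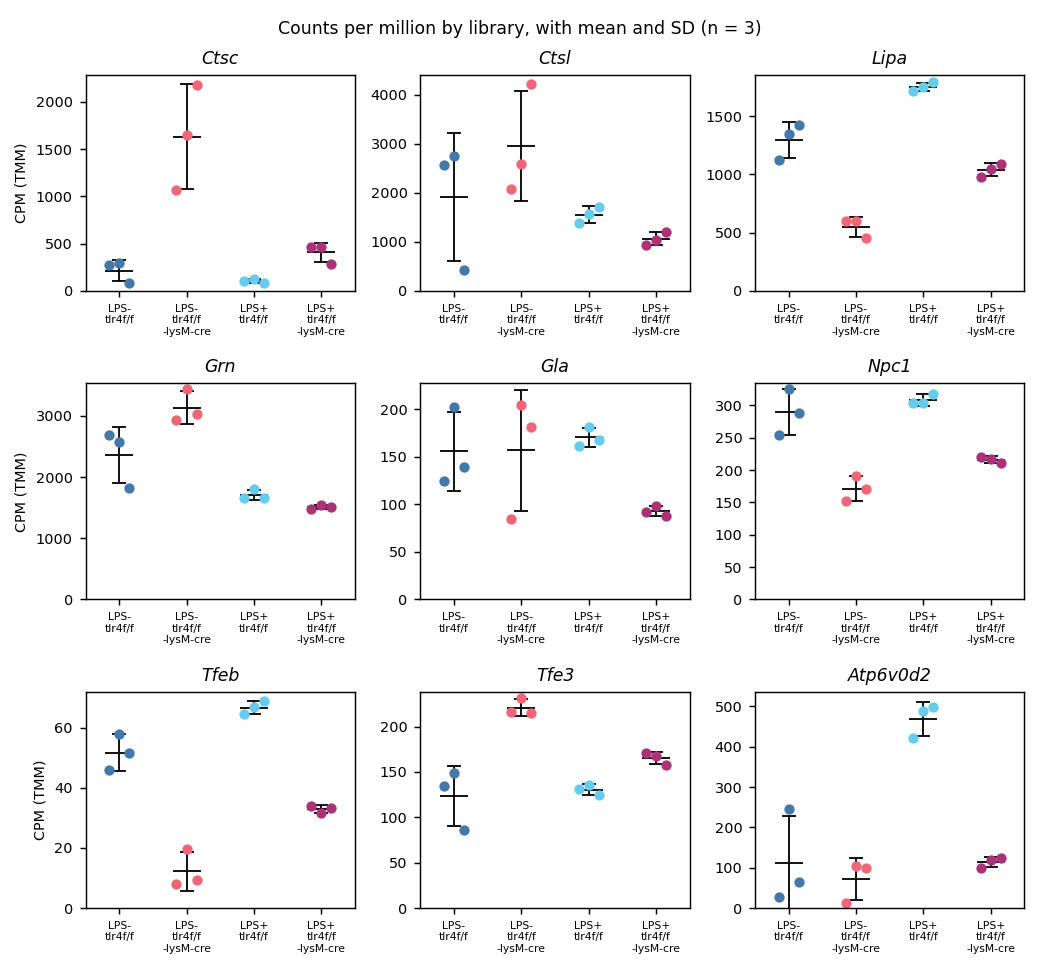
CPM in each library (points), mean and SD (black bars, n = 3) of 9 lysosomal genes by column heading, on linear axes from 0. The lower bar of Atp6v0d2 in LPS- tlr4f/f reaches below 0 and is cut. Tfeb and Lipa are lowest and Ctsc is highest in LPS- tlr4f/f-lysM-cre, and Atp6v0d2 is highest in LPS+ tlr4f/f, at 421 to 499 CPM.

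Genes with and without the 7-letter element were described side by side in the first comparison. The 11 genes with the element had a median log2 difference of -0.25, with 2 higher and 8 lower, and the 23 genes with a window that lacked it had a median of -0.22, with 5 higher and 14 lower. The 6 genes called in both of the first 2 comparisons included 0 of the 11. In the second comparison the medians were 0.00 and -0.08, with 0 of 11 and 6 of 23 called. Of all genes, 61.4% were called in the first comparison, 37.3% in the second and 33.6% in both. Gla and Naglu, both with the element, fell by 0.88 and 0.64 in the first comparison, and Cln3, with 2 elements, rose by 0.33. In the second comparison Gla, at 0.00 ± 0.36, and Naglu, at -0.67 ± 0.24 (adjusted p = 0.069), did not pass.

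Other genes of the pathway were taken from lists of general knowledge. In the first comparison, 13 of 28 further hydrolases fell and 3 rose, with a median log2 difference of -0.18, and of 27 further membrane proteins and transporters 13 rose and 11 fell, with a median of 0.12. Of 14 further V-ATPase subunits 5 rose and 2 fell, and none was a DEG. Of 19 genes of the MiT/TFE factors and their control 4 rose and 8 fell, of 18 autophagy genes 5 rose and 10 fell, and of 9 genes of the mannose 6-phosphate route and the cystatins 5 rose and 0 fell. In the second comparison, the same lists had 1 higher and 5 lower, 7 and 5, 3 and 0, 3 and 3, 5 and 4, and 2 and 1. In the third comparison none of these genes was called by edgeR, while 9 hydrolases, 4 membrane proteins, 3 subunits, 3 genes of the MiT/TFE list, 7 autophagy genes and 2 of the mannose 6-phosphate list had an unadjusted p under 0.05. In the fourth, the counts were 3 and 4 of the hydrolases, 2 and 2 of the membrane proteins, 1 and 1 of the subunits, 1 and 1 of the MiT/TFE list, 1 and 3 of the autophagy genes and 1 and 0 of the mannose 6-phosphate list. These counts stand beside 61.4%, 37.3%, 1.27% and 26.7% of all genes called in the 4 comparisons in turn, and 24.7% with an unadjusted p under 0.05 in the third. Stfa1, Stfa2, Stfa3, Cst6, Atp6v0e2, Ctsw and Cpvl did not pass the filter.

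The largest differences of these lists in the first comparison were wider than those of the 40 genes. Tfec, another MiT/TFE factor, rose from 18.4 to 141 CPM with LPS+ in the heading, a log2 difference of 2.92 (adjusted p = 3.96e-08, edgeR). With LPS- in the heading it rose from 12.1 to 115 CPM, a difference of 3.25 (adjusted p = 0.00537, edgeR). So of Tfeb, Tfe3 and Tfec, Tfeb fell and the others rose in both comparisons under TMM scaling. The rise of Tfe3 did not pass relative to library totals. Mitf, the other MiT/TFE factor of the list, was tested and was not a DEG in the first comparison. Rragd, a Rag GTPase that brings mTORC1 to the lysosome and is known as a TFEB target, fell by 3.02 with LPS+ in the heading and was at -2.70 with LPS- (adjusted p = 0.0821). Rragb fell by 2.34, from a low level of 0.983 CPM to 0.192. Sqstm1, the autophagy receptor p62, rose by 1.95 and 2.16 on the log2 scale in the 2 comparisons. Cst7, cystatin F, an inhibitor of cathepsin C and legumain among others, rose by 3.57 and 2.38.

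Of the transporters, Slc15a3, a proton-coupled peptide transporter, rose from 305 to 1550 CPM (log2 difference 2.34) with LPS+ in the heading and from 313 to 2574 CPM (3.03) with LPS-. The channels of the mucolipin family split: Mcoln2 rose by 2.32 and 2.59, whereas Mcoln3 fell from 3.12 to 1.11 CPM in the first comparison and was at -4.61 ± 1.71 (adjusted p = 0.0764) in the second, and Mcoln1 among the 40 fell by 0.25. Tpcn1, a 2-pore cation channel, fell by 1.98 and 3.60. Of the hydrolases, Acp2, an acid phosphatase, rose by 1.47 and 1.37, Sgsh, a heparan sulfatase, fell by 4.19 and 4.21, and Dnase2a, the acid DNase, fell by 1.08 and 1.39. Apart from Rragd and Mcoln3 in the second comparison, the differences given here passed an adjusted p of 0.05 in edgeR's test.

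Several of the 40 genes share exon bases with a neighbour in the annotation, and the library kit does not mark strand, so reads there cannot be told apart. The longest were 977 bases of Ctsl with an antisense RNA, 774 of Ctsb with Fdft1 and 442 of Cln3 with Apobr. Npc1 shares 319 bases with Rmc1, and Grn 68 bases with Fam171a2. Tfeb, Tfe3, Ctsc, Lipa and Atp6v0d2 share none with another annotated gene.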

How the data were processed

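BMDM RNA was sequenced (2×150 bp, NEBNext Ultra kit). The authors trimmed reads (Trimmomatic 0.36), aligned them to mm10 with HISAT2 and deposited HTSeq counts per transcript, not normalized. Of 115140 transcript rows, the row with the highest total was kept for each of 43131 genes. Transcripts of a gene share reads.

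CPM were scaled by TMM over all 12 libraries. Each of the 4 comparisons used its 6 libraries in edgeR 4.0.16 (R 4.3.3): filterByExpr, TMM, a robust quasi-likelihood fit and Benjamini-Hochberg adjustment over all genes tested; the interaction used all 12. "Rose" and "fell" mean an adjusted p below 0.05. A group was at the floor at 3 counts per library or fewer. Values in every library are given for Tfeb, Tfe3 and, per gene group, up to 5 genes with an adjusted p below 0.01 and a fold above 2 in any comparison, other members by range, mean or count with the least moved of each group. From each pathway list, up to 2 genes per direction with the largest difference by the same criteria are named.

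The members and lists were chosen with earlier results of these data known. The labels do not say whether libraries came from separate mice, so p-values measure the spread between libraries. Counts are reads, not molecules, so floors cover counting error only. Alternatives were DESeq2 1.42.0, RLE factors, library totals without TMM factors (chosen after seeing the data), other filters, summed transcript rows, the DEG criteria, a single 12-library fit, the replicate block and each library left out. Sequences are RefSeq's (GRCm38.p6, the mm10 assembly) and exon overlaps are from GENCODE M21.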

Additional observations from a re-analysis of the deposited data

How the results depend on the processing

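The number of the 40 genes called depended on the setting, and so did the share of all genes called, given in parentheses. With LPS+ in the heading (33 called), the DEG criteria left 3 (21.7%) and the single 12-library fit 9 (31.1%), and leaving out 1 library gave 30 to 34 (55.1% to 58.9%). With LPS- in the heading (7 called), the DEG criteria left 3 (17.1%), the 12-library fit called 15 (53%) and library totals 18 (54.9%), and leaving out 1 library gave 4 to 6 (25.3% to 29.6%). For the tlr4f/f headings (0 called), DESeq2 called 8 (15.7%) and the 12-library fit 1 (4.59%), and leaving out 1 library gave 0 to 5 (0% to 14.2%). For the tlr4f/f-lysM-cre headings (9 called), the DEG criteria left 2 (6.08%) and library totals 14 (39.8%), and leaving out 1 library gave 3 to 16 (7.02% to 34%). For the interaction (0 called), DESeq2 called 2 (14.8%) and library totals 5 (18.6%), and leaving out 1 library gave 0 to 2 (2.26% to 9.47%). Fewer libraries, or the spread of more libraries, enter these fits by construction. The cause of the other changes was not tested.

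Relative to library totals, with LPS+ in the heading, the log2 differences of Ctss (-0.28), Neu1 (-0.22) and Smpd1 (-0.26) turned negative and were called. Those of Ctsh (-0.059), Lamp2 (-0.079) and Atp6v0d1 (-0.068) turned negative and were not called. The other alternatives turned no called gene. Replicate numbers were not treated as pairs in the main tests. Same-numbered libraries of the LPS- groups correlated at 0.472, 0.34 and 0.014 in their deviations from the group means. Differently numbered libraries of these groups correlated at -0.491 to 0.203. In the LPS+ groups the correlations were 0.058, 0.073 and 0.19 for the same number and -0.114 to 0.045 for different numbers. Whether a number marks a shared source was not tested. With the replicate block, 35, 10, 0 and 8 genes were called in the 4 comparisons, beside 64.6%, 39.5%, 0% and 17.2% of all genes. The high spread of the LPS- libraries limits every comparison that uses them.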
